A study of Mus musculus with 12 samples.

Results

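The 10 genes around myostatin are described here by their RNA in mouse muscle and by the open chromatin annotated to them in cultured myotubes. The genes were chosen by symbol: the ligands Mstn, Gdf11, Inhba and Inhbb, the secreted inhibitors Fst, Fstl3 and Nog, and the receptors Acvr2a, Acvr2b and Acvr1b. Their rows are 10 of 20194 genes in the RNA table, and 38 of 38244 peaks in the chromatin table carry one of these gene names. The samples come from a study of cachexia, the wasting of muscle that accompanies some cancers. PolyA RNA was sequenced from muscle of C57BL/6 mice that received PBS (3 libraries) or 500000 Lewis lung cancer (LLC) cells under the skin (3 libraries), with tissue taken on day 22. Open chromatin was mapped with ATAC-seq, in which the Tn5 transposase cuts accessible DNA, in C2C12, a myoblast line of C3H mice, differentiated for 4 to 7 days in 2% horse serum. Controls (3 libraries) were set against cells given C26-conditioned medium, that is medium from Colon-26 tumour cells, for 24 hours (3 libraries). The labels name neither the muscle nor the age and sex of the mice, give the cultured cell type as myoblast although the titles say myotubes, and do not describe the medium of the controls. Whether replicates are separate animals or cultures is not stated, so the p-values measure the spread between these libraries, which may be technical.

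Myostatin, GDF11 and the activins are secreted dimers of the TGF-beta family. They bind a type II receptor (the products of Acvr2a and Acvr2b), which recruits and phosphorylates a type I receptor such as ALK4, the product of Acvr1b, and the signal passes to SMAD2 and SMAD3. In skeletal muscle, myostatin and activins restrain growth, and loss of myostatin gives enlarged muscles. Follistatin (Fst) and follistatin-like 3 (Fstl3) bind these ligands in the extracellular space, whereas noggin (Nog) binds bone morphogenetic proteins (BMPs), a related branch that signals through SMAD1, SMAD5 and SMAD8.

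The RNA libraries held 25.7 to 32.5 M read ends in genes (M, 10 to the power of 6) and the ATAC libraries 10.1 to 18.2 M tags. Summed FPKM (fragments per kilobase of exon and per M fragments) of 10 skeletal muscle fibre genes ran from 26778 to 33694 in PBS and from 32002 to 36322 in LLC, so the libraries carry the labelled tissue. Other cells were present to different extents: 7 neutrophil and marrow genes summed to 122, 6179 and 11728 FPKM in PBS 1 to 3 and to 5858, 10337 and 181 in LLC 1 to 3, so PBS 1 and LLC 3 stand apart. The sum of 6 endothelial genes was 96.3 to 115 in PBS and 189 to 230.3 in LLC, and that of 6 smooth muscle and pericyte genes 188 to 256 and 257 to 309.9. Sums of 7 fibroblast genes (1018 to 1690 in PBS, 732 to 1006 in LLC) and of 7 tendon genes (291 to 428 and 39.2 to 256) were lower in every LLC library. Of 11 genes of differentiated myotubes, 4 (Myod1, Des, Chrna1 and Ttn) had a promoter peak in the ATAC table and 7, Myog, Ckm and Acta1 among them, had none. Of 9 genes of cell types foreign to the line, 0 had one. In ATAC control 1, 27.0% of tags fell in peaks, against 12.0% to 17.9% in the other libraries.

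The promoters of 4 genes are shown beside their chromatin: Mstn had no peak, and Inhbb, Acvr1b and Acvr2b had a promoter peak that was lower after C26 medium in at least 1 of the fits below. Each is the 250 bases before the annotated start, 5′ to 3′ on the gene's strand, from RefSeq on GRCm38.p6 (8 of the 10 genes had an entry, and Fst and Nog had none). Capitals mark a TATA box (TATAAA), an E-box (CANNTG, the site class bound by MyoD and other helix-loop-helix factors) or a GC box (GGGCGG), searched on both strands, with overlapping matches each counted.

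Mstn, chr1:53061390-53061639, plus strand: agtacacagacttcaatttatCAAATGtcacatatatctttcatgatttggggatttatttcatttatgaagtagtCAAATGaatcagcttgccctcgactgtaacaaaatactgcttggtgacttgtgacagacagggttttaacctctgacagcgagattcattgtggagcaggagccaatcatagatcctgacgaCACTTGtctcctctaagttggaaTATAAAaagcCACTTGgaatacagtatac

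Inhbb, chr1:119422249-119422498, minus strand: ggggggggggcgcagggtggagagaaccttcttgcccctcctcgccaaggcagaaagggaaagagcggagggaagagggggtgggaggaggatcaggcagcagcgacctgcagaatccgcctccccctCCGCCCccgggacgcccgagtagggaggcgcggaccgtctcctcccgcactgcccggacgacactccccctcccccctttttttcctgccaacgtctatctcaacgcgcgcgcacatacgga

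Acvr1b, chr15:101173822-101174071, plus strand: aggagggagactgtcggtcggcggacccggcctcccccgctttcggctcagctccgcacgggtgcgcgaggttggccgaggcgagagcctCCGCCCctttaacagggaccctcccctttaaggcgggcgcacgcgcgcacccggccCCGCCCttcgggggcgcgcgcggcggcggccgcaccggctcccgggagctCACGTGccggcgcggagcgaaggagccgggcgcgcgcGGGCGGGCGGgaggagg

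Acvr2b, chr9:119401928-119402177, plus strand: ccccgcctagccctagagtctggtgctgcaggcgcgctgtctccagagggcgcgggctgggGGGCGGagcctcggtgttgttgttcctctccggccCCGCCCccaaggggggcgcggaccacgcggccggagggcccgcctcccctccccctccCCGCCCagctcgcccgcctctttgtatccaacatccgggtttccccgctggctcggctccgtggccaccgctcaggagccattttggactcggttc

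The Mstn sequence was 38.4% G and C and held 3 CpG dinucleotides, a TATA box 29 bases before the start and 4 E-boxes, at -229, -174, -52 and -19. The Inhbb sequence was 68.0% G and C, with 21 CpG and a single GC box at -122. The Acvr1b sequence was 78.8% G and C, with 42 CpG, 4 GC boxes (a pair of them overlapping at -17 and -13) and an E-box at -54, and the Acvr2b sequence was 72.8% G and C, with 24 CpG and 3 GC boxes. Over all 32851 promoters of the table, 12.4% held a TATA box, 66.2% an E-box and 32.7% a GC box, with a median of 52.4% G and C and 6 CpG. A match is a description of letters, and an absent match says only that the letters are not in this window.

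By FPKM, which is per length and allows genes to be compared, Mstn and Acvr1b had the highest levels of the 10, with means over the 6 muscle libraries of 20.4 and 19.1, and Inhba the lowest with 0.97. In PBS the order was Mstn, Acvr1b, Acvr2a, Fst, Acvr2b, Fstl3, Gdf11, Nog, Inhbb and Inhba. The ranges of neighbours in that order overlapped except between Acvr1b and Acvr2a and between Nog and Inhbb. In LLC, Inhbb followed Acvr2a in the order, and the ranges of Inhbb and Acvr2a did not overlap. LLC and PBS were compared with limma on log2(FPKM + 1), a scale that understates the change of low genes, for the 12981 genes whose mean reached 1 FPKM. Inhba, below that mean, was not tested. With Benjamini-Hochberg adjustment limma called 0 of the 9 tested genes at 0.05, where 0.0% of the 12981 genes were called; 3 of the 9 (Gdf11, Inhbb and Nog) and 991 of all genes had an unadjusted p under 0.05. The differences were above 0 for 6 and below 0 for 3, with a median of 0.11 against 0.01 over all tested genes. All LLC libraries lay above all PBS libraries for 2 of the 9 (Inhbb and Nog), against 9.5% of all tested genes, and below them for 1 (Gdf11), against 3.94%.

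**Figure D1:**
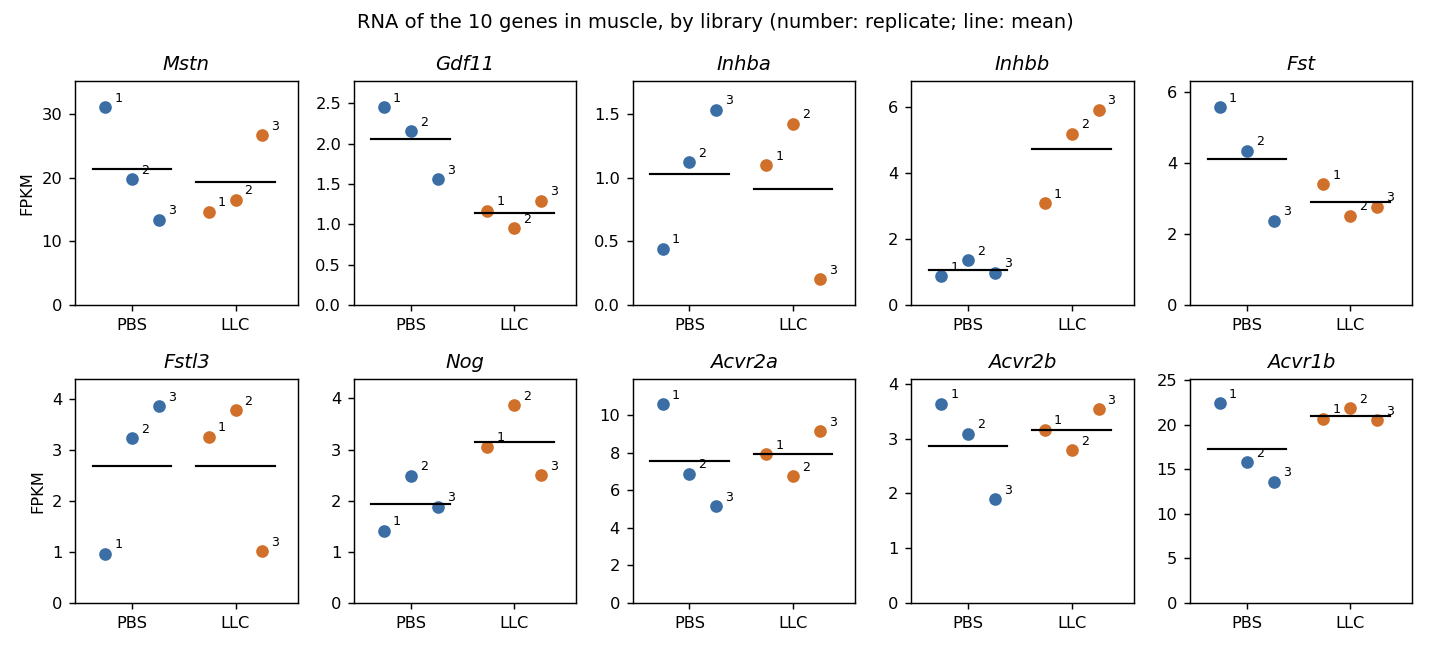
FPKM of the 10 genes (vertical axis, from 0) in each PBS and LLC muscle library, numbered by replicate, with the group mean as a line. The groups do not overlap for Gdf11, Inhbb and Nog; in Mstn, PBS 1 and LLC 3 are the highest libraries, and in Fstl3 and Inhba they are the lowest.

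Among the ligands, Mstn (chr1:53061640-53068079, plus strand), the gene of myostatin, stood at 31.1, 19.8 and 13.4 FPKM in the PBS libraries 1 to 3, and at 14.7, 16.6 and 26.7 in the LLC libraries 1 to 3. PBS 1 and LLC 3 were the highest, and the groups overlapped. The means were 21.4 ± 8.97 (SD, n = 3) and 19.3 ± 6.47 (SD, n = 3), and the log2 difference was -0.11 (SE 0.36, 95% interval -0.99 to 0.77; limma adjusted p = 0.9998). The sign turned to 0.19 without PBS 1 and to 0.05 without LLC 1. The 2 libraries highest in Mstn were the 2 with the lowest sums of neutrophil and marrow genes. With both left out limma called 0 genes of the set, where it called 0 of all 13103 genes tested. The part of the marrow genes in the Mstn level was not tested. In bulk tissue, fewer cells of a type and less RNA per cell cannot be told apart.

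**Figure D2:**
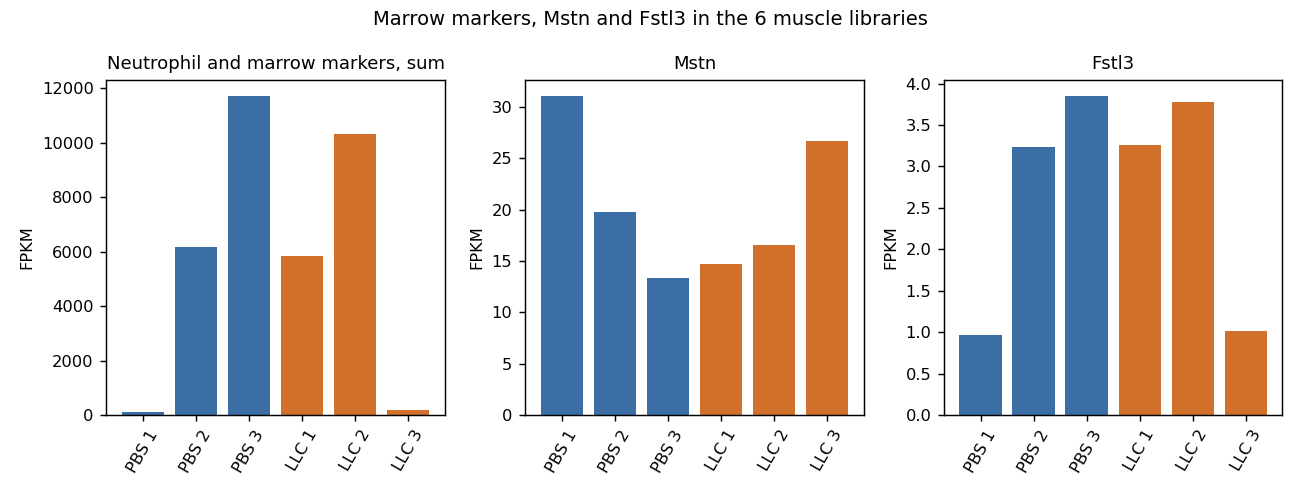
Summed FPKM of 7 neutrophil and marrow genes, FPKM of Mstn and FPKM of Fstl3 (bars from 0) in the 6 muscle libraries, PBS in blue and LLC in orange. PBS 1 and LLC 3 hold the lowest marker sums (122 and 181), the highest Mstn (31.1 and 26.7) and the lowest Fstl3 (0.967 and 1.01).

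Gdf11 (chr10:128880524-128891718, minus strand), which encodes the closest relative of myostatin, was at 2.45, 2.16 and 1.56 FPKM in PBS and at 1.17, 0.951 and 1.30 in LLC. In FPKM, every LLC library was below every PBS library. The closest pair was PBS 3 and LLC 3, whose FPKM over all genes summed to 482681 and 385204, so this separation depends on the scale. The means were 2.05 ± 0.453 and 1.14 ± 0.174 (SD, n = 3 each), a log2 difference of -0.51 (SE 0.17; limma adjusted p = 0.535). The difference stayed below 0 in all 15 alternatives, from -0.79 to -0.41, none of which called it. Within each group, Gdf11 fell in the order in which the sum of neutrophil and marrow genes rose, and their part was not tested.

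Inhbb (chr1:119415463-119422248, minus strand), which encodes the beta-B subunit of activin B, had the largest difference of the tested genes of the set. It was at 0.885, 1.37 and 0.984 FPKM in PBS and at 3.10, 5.20 and 5.93 in LLC. All 3 LLC libraries were above all 3 PBS libraries, with LLC 1 the lowest of the LLC group. The means were 1.08 ± 0.254 and 4.74 ± 1.47 (SD, n = 3 each), a ratio of 4.40. The log2 difference was 1.44 (SE 0.23, 95% interval 0.86 to 2.01), and limma placed it 69th by p among 12981 genes (adjusted p = 0.175), so it did not pass the threshold. Over 15 alternatives it ranged from 1.22 to 2.01 with adjusted p from 0.164 to 0.668, and it was 1.29 to 1.66 with 1 library left out. The endothelial sum was also higher in every LLC library, and its part in the Inhbb level was not tested.

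Inhba (chr13:16011851-16031609, plus strand), the gene of the beta-A subunit of activin A, was at 0.443, 1.12 and 1.53 FPKM in PBS and at 1.096, 1.42 and 0.203 in LLC. The groups overlapped, and PBS 1 and LLC 3, low in marrow genes, were the lowest. The means were 1.03 ± 0.55 and 0.907 ± 0.631 (SD, n = 3 each). The reads were counted without regard to strand, and Inhba overlaps the gene B230303A05Rik, so reads of the pair cannot be told apart.

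Among the secreted inhibitors, Fst (chr13:114452262-114458951, minus strand), which encodes follistatin, was at 5.57, 4.34 and 2.37 FPKM in PBS and at 3.40, 2.51 and 2.76 in LLC. PBS 1 and 2 were above all LLC libraries and PBS 3 below them. The log2 difference was -0.34 (SE 0.27, 95% interval -1.002 to 0.32; limma adjusted p = 0.995). It was -0.13 without PBS 1 and -0.61 without PBS 3, with no call in either. Fst overlaps the gene Gm41074.

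Fstl3 (chr10:79777274-79782630, plus strand) was at 0.967, 3.23 and 3.85 FPKM in PBS and at 3.26, 3.78 and 1.01 in LLC. PBS 1 and LLC 3 were lowest, the reverse of Mstn. The log2 difference was 0.01 (SE 0.48, 95% interval -1.17 to 1.18; limma adjusted p = 0.9998), and the interval is the widest of the tested genes of the set. Its sign turned to -0.39 without PBS 1, to -0.15 without LLC 1 and to -0.23 without LLC 2. Fstl3 overlaps Prss57, which encodes a protease of neutrophil granules, and the 2 libraries low in Fstl3 are those low in neutrophil and marrow genes; the part of Prss57 reads in the Fstl3 value was not tested.

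Nog (chr11:89300638-89302559, minus strand), the gene of the BMP antagonist noggin, was at 1.41, 2.49 and 1.88 FPKM in PBS and at 3.06, 3.86 and 2.494 in LLC. The groups did not overlap, by the margin of LLC 3 at 2.494 over PBS 2 at 2.490. The means were 1.93 ± 0.542 and 3.14 ± 0.689 (SD, n = 3 each), a log2 difference of 0.50 (SE 0.20, 95% interval 0.01 to 1.001; limma adjusted p = 0.648).

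The receptor genes gave overlapping groups throughout. Acvr1b (chr15:101174072-101213684, plus strand), the gene of the type I receptor ALK4, was at 22.4, 15.8 and 13.6 FPKM in PBS and at 20.7, 21.9 and 20.525 in LLC. The LLC libraries lay close together and PBS 1 was above all of them. The means were 17.3 ± 4.601 and 21.02 ± 0.725 (SD, n = 3 each), a log2 difference of 0.30 (SE 0.19; limma adjusted p = 0.936). It was 0.49 without PBS 1 and 0.15 without PBS 3, with no call in either.

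Acvr2a (chr2:48814109-48903264, plus strand), a type II receptor gene, was at 10.6, 6.88 and 5.17 FPKM in PBS and at 7.91, 6.77 and 9.14 in LLC, with a log2 difference of 0.11 (SE 0.25; limma adjusted p = 0.9998). Acvr2b (chr9:119402178-119442148, plus strand), the type II receptor gene best known for binding myostatin, was at 3.63, 3.09 and 1.90 FPKM in PBS and at 3.16, 2.78 and 3.54 in LLC, with a log2 difference of 0.13 (SE 0.21; limma adjusted p = 0.9998). In both, PBS 1 was the highest library and PBS 3 the lowest. Within each group, both genes fell in the order in which the sum of neutrophil and marrow genes rose. The part of the marrow genes in these values was not tested. Without PBS 3 the differences were -0.10 for Acvr2a and -0.07 for Acvr2b. Acvr2a overlaps Orc4 and Acvr1b overlaps Mir6962.

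**Figure D3:**
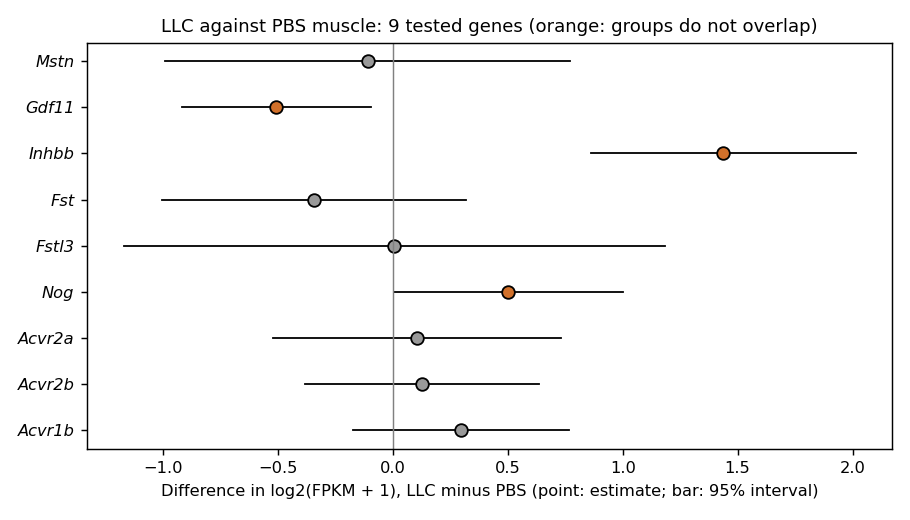
LLC minus PBS difference in log2(FPKM + 1) (horizontal axis) for the 9 tested genes, as the limma estimate with its 95% interval, orange where the groups do not overlap. Inhbb lies at 1.44 with an interval from 0.86 to 2.01, Gdf11 at -0.51, and the intervals of Mstn, Fst, Fstl3 and the receptors include 0.

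The rest of the pathway was read from 7 lists with 73 genes, of which 71 were in the table and 51 were tested. Limma called 0 of the 51 after adjustment, as it called 0 of all 12981 genes tested. An unadjusted p under 0.05 was found for 9 of the 51 and for 991 of the 12981. Of the differences, 26 were above 0 and 25 below, with a median of 0.03 against 0.01 over all tested genes. All LLC libraries were above all PBS libraries for 9 of the 51, against 9.5% of all tested genes, and below them for 2, against 3.94%.

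Of the 2 tested genes for other activin-type ligands and inhibin, Gdf1 was lower without overlap, 9.43 to 11.7 FPKM in PBS and 5.97 to 8.89 in LLC (log2 difference -0.51, SE 0.17; limma adjusted p = 0.531). Gdf1 lies in a shared transcript with Cers1, which these values do not separate. Inha, which encodes the inhibin alpha subunit, overlapped between the groups at -0.24. Of 8 genes for ligand processing and latency, 3 were above 0 and 5 below. Bmp1, a protease that releases myostatin from its propeptide, was at 11.1 to 16.8 FPKM in PBS and 8.67 to 11.7 in LLC. The groups overlapped (-0.49, SE 0.19; limma adjusted p = 0.633). The fibroblast sum was also lower in every LLC library, and its part in the Bmp1 value was not tested. Furin, which cleaves the precursors, gave 0.26, and Wfikkn2, an extracellular myostatin antagonist, gave 0.27, both with overlap.

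Of 9 other receptors and co-receptors 7 were above 0. Tgfbr2, the type II receptor of TGF-beta itself, was at 15.5 to 20.4 FPKM in PBS and 21.3 to 28.5 in LLC without overlap (0.35, SE 0.17; limma adjusted p = 0.754). Tgfbr3, the co-receptor betaglycan, gave 0.42, and Acvrl1, the endothelial type I receptor ALK1, gave 0.45, both with overlap. Of 9 SMADs and SMAD ubiquitin ligases, 3 were higher in all LLC libraries, against 9.5% of all tested genes. Smad1, a BMP-branch SMAD, was at 4.58 to 6.13 FPKM in PBS and 7.67 to 7.76 in LLC (0.46, SE 0.13; limma adjusted p = 0.422). Smad7, an inhibitory SMAD, was at 1.41 to 2.42 and 2.99 to 3.71 (0.59, SE 0.18), and Smad5, the other BMP-branch SMAD named, at 7.52 to 8.35 and 9.004 to 9.46 (0.21, SE 0.10).

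Among 5 tested BMP ligand genes, Bmp4 was higher without overlap, at 2.35 to 3.41 FPKM in PBS and 3.92 to 5.22 in LLC (0.55, SE 0.16). Gdf10 was lower without overlap, at 5.64 to 7.83 and 2.37 to 4.28 (-0.89, SE 0.21; limma adjusted p = 0.365), and Bmp5 overlapped at -0.36. Of 7 other BMP antagonists and follistatin-like genes, 6 were below 0, with overlap in each: Chrdl1 at -0.54, Nbl1 at -0.30 and Bmper at -0.23. The fibroblast sum (1018 to 1690 FPKM in PBS, 732 to 1006 in LLC) and the tendon sum were also lower in every LLC library, and their part in these values and in Gdf10 was not tested. Of 11 SMAD target genes, 4 were higher in all LLC libraries, against the same 9.5% of all tested genes. Id1, a BMP target, was at 14.7 to 23.8 FPKM in PBS and 26.4 to 46.7 in LLC (0.89, SE 0.27), and Tgif1 at 3.87 to 4.86 and 5.79 to 6.11 (0.33, SE 0.12). Acvrl1, Id1, Bmp4 and Tgfbr2 are also expressed in endothelium, whose marker sum was higher in every LLC library; its part in these values was not tested.

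The genes whose pattern over the 6 muscle libraries was most like that of Mstn, by Pearson r of log2(FPKM + 1), were Med25 (r = 0.999), Usp24 (0.996), Myoz1 (0.990) and Farp2 (0.986). Med25 spanned 21.01 to 24.9 FPKM, against 13.4 to 31.1 for Mstn, so the likeness is of order and spacing, not of size. The lowest r were those of Micu2 (-0.996) and Eif6 (-0.994), and 169 genes had an r above 0.9 with Mstn. For Inhbb the most alike were Gabarapl1 (0.994), Galnt18 (0.994), Plscr2 (0.993) and Fbln5 (0.993), and the least alike Polr3k (-0.992) and Slc25a15 (-0.981), with 377 genes above 0.9. Gabarapl1, an autophagy gene of the ATG8 family, was at 29.4 to 31.9 FPKM in PBS and 44.7 to 56.4 in LLC. With n = 6 libraries that share depth and cell makeup across genes, these r are descriptions.

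In the ATAC data of myotubes, 9 of the 10 genes carried 38 peaks: 11 at Inhbb, 8 at Acvr2a, 4 each at Inhba and Nog, 3 each at Fst and Acvr1b, 2 each at Gdf11 and Fstl3 and 1 at Acvr2b. HOMER annotation gives each peak to the gene with the nearest start, which does not show that the peak acts on that gene. Of the 38 peaks, 23 were intergenic and 23 lay more than 10 kb from the start. Mstn had no peak. The nearest peak centre upstream of its start was 216720 bp away, at the promoter of Hibch. The nearest downstream was 235408 bp away, at the promoter of Pms1. Each of the other 9 genes had a peak centred at most 863 bp from its start. Of the 11 genes of differentiated myotubes above, 4 had a promoter peak, so the lack of a promoter peak is not particular to Mstn. Peaks farther from those 11 genes were not counted, so the wider gap around Mstn has no comparison here.

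Peak values are tags scaled to 10 M tags per library. All 38 peaks were tested with limma on log2(value + 1), in the values as deposited and after median-of-ratios scaling, which takes its factors from the peaks themselves. The scaling moved the median log2 difference of all peaks, C26 minus control, from -0.54 to -0.02. The factor was highest in control 1 (1.81), followed by control 3 (1.16), and 0.785 to 0.891 in the C26 libraries; without control 1 the median was -0.26 as deposited and -0.02 after scaling. As deposited, 4 of the 38 peaks were lower after C26 medium at an adjusted p under 0.05, against 1.88% of the 37358 peaks tested, and 0 were higher, against 1.15%. After scaling, 10 were lower, against 12.7%, and 1 was higher, against 17.1%. The median over the 38 was -0.71 as deposited and -0.19 after scaling. All C26 libraries were below all controls for 17 of the 38 as deposited, against 34.0% of all peaks; after scaling this held for 10, against 19.4%, and the opposite for 4, against 21.7%. These counts turned on single libraries. As deposited, 5 of the 38 were called without control 1, where 2611 of all 37324 peaks tested were called lower and 1954 higher. Without control 2, 24 were called, where 19856 of all 37366 were called lower and 751 higher. Without control 3 or any C26 library, 0 were called. In those fits 28 to 51 of all peaks were called lower and 90 to 144 higher. After scaling, 6 were called without control 1 or without control 3, where 3235 to 3856 of all peaks were called lower and 5405 to 5615 higher.

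**Figure D4:**
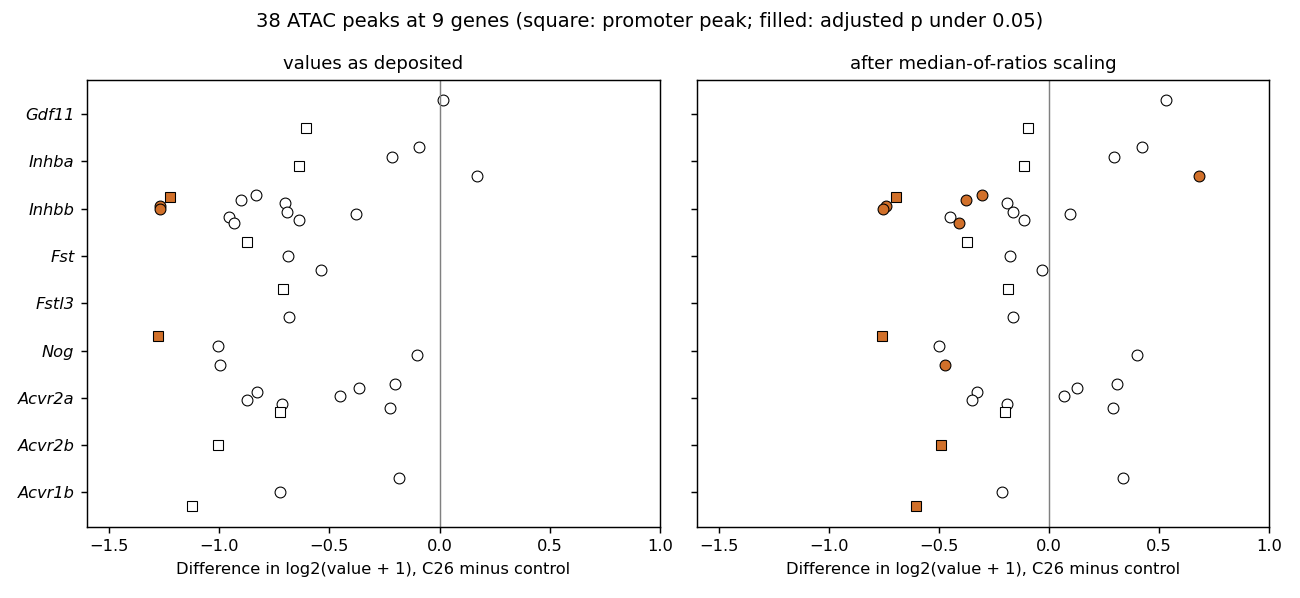
C26 minus control difference in log2(value + 1) (horizontal axis) of the 38 peaks at 9 genes, as deposited on the left and after median-of-ratios scaling on the right; squares are promoter peaks and filled symbols have an adjusted p under 0.05. On the left 36 of 38 lie below 0, against 84.3% of all peaks tested, with 4 filled. On the right 27 lie below 0, against 52.1% of all peaks tested, with 11 filled, 6 of them at Inhbb.

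Inhbb held 3 of the 4 peaks called as deposited and 6 of the 10 called lower after scaling. Its promoter peak (chr1:119421578-119423038), which spans the Inhbb sequence printed above, was at 149, 57.4 and 90.0 in controls 1 to 3 and at 41.4, 32.3 and 43.4 in C26 1 to 3. Every control was above every C26 library. The log2 difference was -1.22 (SE 0.37; limma adjusted p = 0.0353) as deposited and -0.70 (SE 0.12; adjusted p = 5.94e-06) after scaling, where the libraries were at 82.4, 67.3 and 77.3 against 49.2, 41.1 and 48.7. As deposited the call was lost in 4 of the 6 fits that left out a library, those without control 3 or any C26 library; after scaling it held in 6 of 6.

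An intergenic peak 113140 bp downstream of the Inhbb start (chr1:119308723-119309493) was at 167, 91.8 and 116 in controls and at 50.3, 43.0 and 56.9 after C26 medium. The groups did not overlap on either scale. The log2 difference was -1.27 (SE 0.36; limma adjusted p = 0.0208) as deposited and -0.74 (SE 0.10; adjusted p = 1.74e-07) after scaling, and the scaled call held in 6 of 6 fits without a library. A neighbouring peak at 119688 bp (chr1:119302411-119302710) was at 67.9, 31.1 and 43.0 in controls and at 13.3, 15.6 and 28.3 after C26 medium, with differences of -1.27 (adjusted p = 0.0487) and -0.75 (adjusted p = 0.00135); the scaled call again held in 6 of 6. As deposited, both of these calls were also lost without control 3 or any C26 library. That of the peak at 119688 bp was further lost at a pseudocount of 5 (limma adjusted p = 0.0582), with no filter (0.0516), at a mean of at least 20 (0.0636) and with the replicate number as a term (0.0552).

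Of the 3 further Inhbb peaks that limma called only after scaling, the peak 35904 bp upstream fell by 0.30 on the log2 scale, the one 17452 bp downstream by 0.38 and the one 168761 bp downstream by 0.41 (adjusted p = 0.0320, 0.0102 and 0.0184). The first was lost in 4, the second in 1 and the last in 3 of the 6 scaled fits without a library. The other 5 Inhbb peaks were not called, with scaled differences from -0.45 to 0.09. The highest of all, 121908 bp downstream, had a mean of 103.8 over the 6 libraries and a scaled difference of -0.16. Summed over its 11 peaks, Inhbb was at 593, 621 and 587 in controls and at 436, 450.4 and 470.2 after C26 medium on the scaled values, 24.7% lower in the mean, and 50.1% lower as deposited. The fall was larger at Nog (-25.8% scaled, -51.4% as deposited) and at the single Acvr2b peak (-29.2% and -54.6%). At the remaining genes with peaks the change ran from -12.0% (Fst) to 18.3% (Inhba) after scaling. As deposited it ran from -42.3% (Fstl3) to -23.4% (Inhba). Such sums were not taken for genes outside the set. No RNA of these myotubes was analysed here, and the muscle RNA comes from other samples and another tumour, so the lower Inhbb peaks and the Inhbb RNA levels were not tested against each other.

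**Figure D5:**
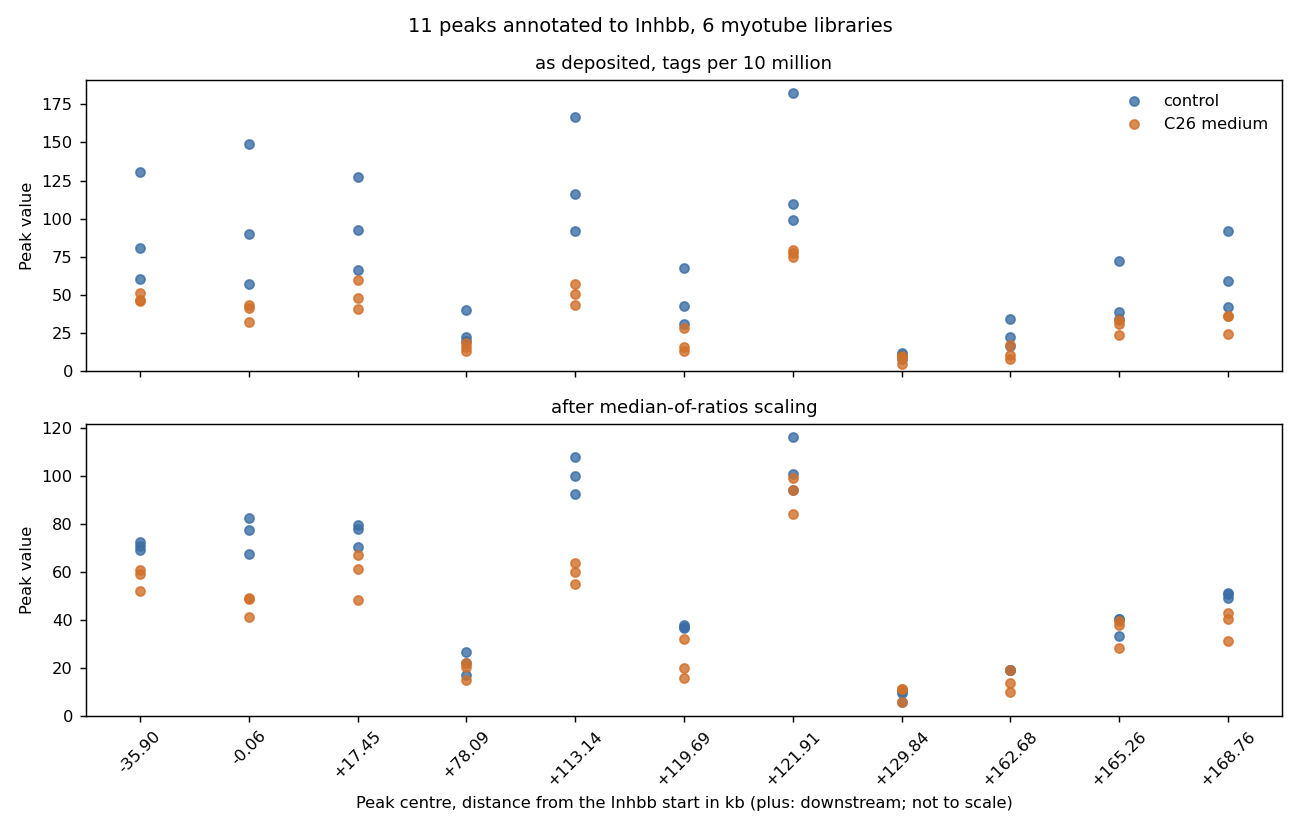
Values of the 11 peaks annotated to Inhbb in the 3 control (blue) and 3 C26 medium (orange) libraries, ordered by distance from the start in kb (horizontal axis, not to scale), as deposited above and after median-of-ratios scaling below. In both panels the promoter peak and the peaks 113140 and 119688 bp downstream have every control above every C26 library.

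Nog held the remaining peak called as deposited. Its promoter peak (chr11:89302183-89303693) was at 68.4, 37.8 and 42.5 in controls and at 16.0, 16.0 and 27.5 after C26 medium. The groups did not overlap, and the peak had been called in 2 of 3 control and 0 of 3 C26 peak lists. The differences were -1.28 (SE 0.40; limma adjusted p = 0.0442) as deposited and -0.76 (SE 0.17; adjusted p = 0.00054) after scaling, where the call held in 6 of 6 fits without a library. As deposited it was lost without control 3 or any C26 library, at a pseudocount of 5 (limma adjusted p = 0.0530) and at a mean of at least 20 (0.0581). A second Nog peak, 95468 bp downstream, was called only after scaling (-0.47, adjusted p = 0.0190), and was lost in 3 of those 6 fits.

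At the other inhibitors no peak was called on either scale. The peak 500 bp inside Fst was at 31.3, 13.8 and 18.3 in controls and 14.8, 7.29 and 10.4 after C26 medium, with a scaled difference of -0.37 (limma adjusted p = 0.286). The peak 863 bp inside Fstl3 was at 85.3, 39.2 and 55.4 in controls and 31.6, 35.8 and 36.3 after C26 medium, with a scaled difference of -0.19 (adjusted p = 0.297).

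Among the receptors, the Acvr1b promoter peak (chr15:101173694-101174183) was at 86.2, 25.99 and 40.0 in controls and at 26.9, 18.4 and 16.2 after C26 medium. The groups overlapped through control 2. The difference was -1.12 (SE 0.40; limma adjusted p = 0.0799) as deposited and -0.60 (SE 0.18; adjusted p = 0.00877) after scaling, with the scaled call lost without control 1 and without C26 3. The single Acvr2b peak, at the promoter (chr9:119401546-119402221), was at 67.0, 23.6 and 38.6 in controls and at 16.4, 16.7 and 25.6 after C26 medium. It overlapped through control 2, with -1.01 (adjusted p = 0.107) as deposited and -0.49 (SE 0.18; adjusted p = 0.0329) after scaling, a call lost in 4 of 6 fits without a library. At Acvr2a none of the 8 peaks was called; the promoter peak was at 71.5, 29.0 and 46.0 in controls and 26.1, 23.6 and 33.0 after C26 medium, with a scaled difference of -0.20 (adjusted p = 0.321), and the peak 294089 bp upstream had the smallest p of the 8 (-0.35, adjusted p = 0.0708).

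Among the other ligands, 2 of the 4 Inhba peaks changed sign with the scaling and were called on neither scale: the one 81829 bp upstream went from -0.09 to 0.42 and the one 3930 bp upstream from -0.21 to 0.29. Both lay in intron 1 of another transcript, NR_155430. An intronic Inhba peak 4923 bp after the start (chr13:16016593-16016956) was at 25.9, 9.79 and 11.9 in controls and at 23.8, 12.8 and 14.6 after C26 medium, with overlap and a difference of 0.17 (limma adjusted p = 0.778) as deposited. This peak is annotated to a repeat, the LTR element RLTR31D_MM. After scaling it was at 14.3, 11.5 and 10.2 against 28.3, 16.4 and 16.3, without overlap, and was the 1 peak called higher (0.68, SE 0.25; adjusted p = 0.0351), a call lost without control 2, control 3 or C26 1. Quantile normalization gave 0.53 for it (limma adjusted p = 0.105), with no call. The Inhba peak 354 bp inside the gene gave -0.64 as deposited and -0.12 after scaling, with neither called. At Gdf11, the peak 183 bp before the start was at 29.5, 6.75 and 17.3 in controls and 17.6, 11.1 and 19.0 after C26 medium, with overlap and differences of 0.02 as deposited and 0.53 after scaling (adjusted p = 0.117). The second Gdf11 peak, in an exon 411 bp after the start, gave -0.61 and -0.10, with neither called.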

How the data were processed

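Per the file headers, the authors ran HOMER over RefSeq exons (mm10) to obtain the FPKM of the RNA table, ignoring strand and condensing each gene to 1 transcript. ATAC values are signal, tags per merged peak deposited after scaling to 10 M tags (M, 10 to the power of 6) per library, per the file headers. The submitters' processing notes name HISAT2, HOMER, DESeq2, Bowtie2 and MACS2 with GRCm38 and mm10. Their versions and roles were not given in the sources. The ATAC depth is the library total in the column headers. Values times this total fell on whole read ends for 100% of ATAC values within 0.1. The RNA depth came from the steps of FPKM times transcript length. Per-sample columns left unused: 0.

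From these values log2(value + 1) was tested in R 4.3.3 with limma 3.58.1 (trend, two-sided, Benjamini-Hochberg, threshold 0.05) over all genes whose mean reached 1 FPKM and all peaks with a mean of at least 5, with 3 libraries per group and no block. Recovered ATAC read ends were also tested with edgeR 4.0.16. The fit was first tested on simulated data. Plots used matplotlib 3.10.9. The members and lists were chosen with earlier results of these data known. Named were all members, every called or promoter peak and the smallest-p peak of each member, up to 3 smallest-p genes of each pathway list (1 of these is not reported here), and the 4 most and 2 least like Mstn and Inhbb. Alternatives were other pseudocounts, filters, scalings and models, a replicate term and leaving out libraries.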

Additional observations from a re-analysis of the deposited data

How the results depend on the processing

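Limma called 0 RNA genes of the set and 0 of the pathway lists in each of 16 alternatives, the replicate block included. Each of these fits called 0 or 1 of all genes tested, so the 0 is not particular to the set or the lists. The count of peaks called as deposited (4) was 2 at a pseudocount of 5 and 2 at a mean of at least 20, where fewer peaks were tested. It was 11 after median-of-ratios scaling, 11 after quantile normalization (0 of them higher, against 1 with the other scalings) and 11 with edgeR on recovered read ends (TMM), 3 with the replicate block, and from 0 to 24 with 1 library left out. Over all peaks tested, 646 were called lower at a pseudocount of 5 and 338 at a mean of at least 20. After scaling, edgeR included, 4755 to 5395 were called lower and 5604 to 6522 higher. With 1 library left out, 28 to 19856 of all peaks were called lower and 90 to 1954 higher. The scaled count (11) was 6 to 9 with 1 library left out and 11 with the replicate block. The scaled fits with 1 library left out called 3235 to 4139 of all peaks lower and 5170 to 5755 higher. The causes were not tested. Deviations of same-numbered libraries from their group means correlated at -0.09, 0.60 and -0.60 in the RNA and at -0.01, 0.01 and -0.02 in the ATAC. Deviations from a mean of 3 libraries are tied to each other, so these values cannot decide whether replicate numbers pair the samples.

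With 1 library left out the log2 difference ran from -0.39 to 0.19 for Mstn, -0.39 to 0.40 for Fstl3, -0.10 to 0.35 for Acvr2a, -0.0686 to 0.27 for Acvr2b and -0.0898 to 0.57 for the Inhba peak 4923 bp after its start, as deposited. Fstl3 was also at -0.0409 with quantile normalization and at -0.00600 without both PBS 1 and LLC 3, an alternative chosen after seeing the data, as were the scaled fits without a library. The directions of Gdf11, Inhbb, Fst, Acvr1b and Nog held in every alternative run.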
